A study of Mus musculus with 6 samples.

Results

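Collagens are the main structural proteins of the extracellular matrix, and each is assembled from 3 chains that wind into a triple helix. This account describes every gene in the mouse genome annotation that encodes such a chain, taken as the protein-coding genes whose symbol is Col, a type number, the letter a and a chain number. The rule used names only and no measured value. It found 44 genes among the 35865 genes to which the transcripts were assigned, on 15 chromosomes, with 224 annotated transcripts between them. They were sorted into 11 fibrillar chains, 6 basement membrane chains, 9 chains of the fibril-associated collagens with interrupted triple helices (FACIT) and 18 others.

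Fibrillar collagens such as types I, III and V bundle into the fibres that give the heart wall its tensile strength. Basement membrane collagens of type IV form sheets under endothelium and around muscle cells, FACIT chains decorate the surface of fibrils, and type VI collagen makes beaded filaments in the pericellular matrix. Chains are hydroxylated, glycosylated and folded in the endoplasmic reticulum, secreted, trimmed by proteases and crosslinked by lysyl oxidases. In the heart, fibroblasts are the best known source of fibrillar collagen, and macrophages are known more for taking up and degrading it and for signals to fibroblasts.

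The libraries were RNA-seq of cardiac macrophages sorted from digested hearts of C57BL/6J mice and labelled as descending from hematopoietic progenitors of a donor. Donor cells with a Tet2 knockout (labelled Tet2 KO) gave 3 libraries, and donor cells with intact Tet2 (labelled Tet2 WT) gave the other 3. Tet2 encodes an enzyme that oxidises methylated cytosine, and the series concerns Tet2-mutant clonal hematopoiesis and the ageing heart in mice that received no conditioning. The age of the mice, the sort gate, the share of the heart's macrophages that came from the donor and the part of Tet2 that was deleted are not given in the sources used here. Whether each library stands for its own animal is not stated in the labels, so a p-value here reflects only how these libraries vary, and part of that variation may be technical.

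Depth ran from 37349505 to 55771087 estimated counts per library. Tet2 itself was not lower in Tet2 KO over the whole gene (log2 fold change 0.32 ± 0.14 SE, adjusted p = 0.159 by the edgeR quasi-likelihood test with Benjamini-Hochberg adjustment). Such a whole-gene sum is no check of the label when the deleted stretch is unknown. All 16 macrophage markers were expressed in both genotypes, with a summed level of 32198 to 38627 counts per 1e6 (CPM) in Tet2 KO against 20574 to 27903 CPM in Tet2 WT, and 14 of them were called higher in Tet2 KO. The 18 fibroblast markers, a list without any collagen, summed to 2167 to 4235 CPM in Tet2 KO and to 16700 to 31643 CPM in Tet2 WT, and 17 of them were called lower. Of all tested genes, 6.11% were called higher and 10.1% lower. In sorted bulk RNA, fewer cells of a type and less of its RNA per cell cannot be told apart.

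Collagen transcripts were lower in the Tet2 KO libraries across most of the family. Of the 44 genes, 33 passed the filter on low counts, 22 were called lower in Tet2 KO at an adjusted p under 0.05, 11 were not called and 0 were called higher. Over all 16386 genes tested, 10.1% were called lower and 6.11% higher (16.2% in either direction). The median log2 fold change of the 33 tested collagens was -2.42, against 0.0025 over all tested genes. A log2 fold change below -2 was found for 21 of the 33 tested collagens and for 7.10% of all tested genes. Leaving aside Col12a1, which rests on very few reads, the called genes were lower by 3.82-fold to 15.5-fold, with adjusted p between 8.66e-05 and 0.0198. The upper end is Col4a6, which also rests on few reads, with 5, 6 and 6 counts in Tet2 KO. Next to it was Col6a3, lower by 13.5-fold.

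Levels are given below in transcripts per 1e6 transcripts (TPM), a length-corrected unit that allows genes to be compared within a library, summed over the transcripts of a gene. The 3 Tet2 KO libraries lay below the 3 Tet2 WT libraries for 27 of the 44 collagens and above them for 0, where 24.2% and 8.14% of all tested genes did so. These shares cover tested genes only, while the 27 include Col9a2 and Col13a1, which were not tested. All collagen chains together summed to 152.5, 144.2 and 179.4 TPM in Tet2 KO replicates 1 to 3 and to 1378, 815.4 and 1203 TPM in Tet2 WT replicates 1 to 3. The ratio of the means was 7.13. The summed fibroblast markers differed by a like ratio, 7.31, and the endothelial markers by 1.42. Among the wild-type libraries, replicate 2 had the lowest level of each of the 22 called collagens. It also had the lowest fibroblast and the highest macrophage marker sum of that genotype. Among the Tet2 KO libraries, replicate 2 was the lowest for 13 of the 22. Its fibroblast marker sum was the lowest there too (1281 TPM against 2698 and 2494 TPM), but so was its macrophage marker sum. The part of these cell-type markers in the collagen difference was not tested.

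**Figure D1:**
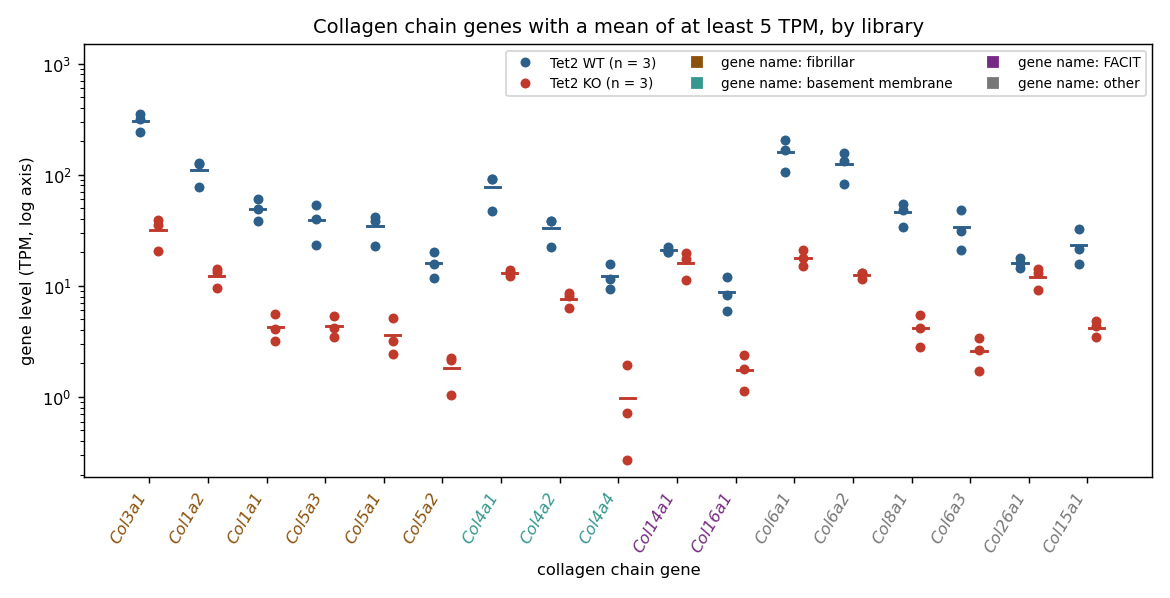
Level of each collagen gene with a mean of at least 5 TPM, in TPM on a log axis, with 1 point for each library, a bar at the mean of the 3 libraries of a genotype, and gene names coloured by class. For 15 of the 17 genes the red Tet2 KO points sit far below the blue Tet2 WT points, while those of Col14a1 and Col26a1 nearly meet.

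The fibrillar class included the most abundant collagen gene of both genotypes. Col3a1 (ENSMUSG00000026043.18; GRCm38 chr1:45311538-45349706, plus strand), whose product forms the fine reticular fibres of soft tissue, stood at 35.0, 20.5 and 39.3 TPM in Tet2 KO against 350.8, 243.1 and 319.7 TPM in Tet2 WT. Every Tet2 KO library was far below every wild-type library. Its log2 fold change was -3.20 ± 0.26 (SE; edgeR's adjusted p = 0.000127). Col3a1-205, a short protein-coding transcript of 737 bases, supplied 14.005, 8.251 and 16.001 TPM of these sums in Tet2 KO against 118.9, 91.3 and 117.8 TPM in Tet2 WT, since TPM gives short transcripts more weight per read.

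Type I collagen, the main component of scar and of the thick cardiac fibres, is built from the products of Col1a1 and Col1a2. Col1a1 (ENSMUSG00000001506.10; chr11:94936224-94953042) was at 4.05, 3.20 and 5.57 TPM in Tet2 KO against 60.2, 38.6 and 49.3 TPM in Tet2 WT. Col1a2 (ENSMUSG00000029661.16; chr6:4504814-4541544) was at 13.3, 9.61 and 14.1 TPM in Tet2 KO against 126.9, 77.6 and 123.8 TPM in Tet2 WT. For both chains the groups stood well apart, with log2 fold changes of -3.33 ± 0.24 for Col1a1 and -3.002 ± 0.220 for Col1a2 (edgeR's adjusted p = 8.66e-05 for each).

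Type V collagen is a minor fibrillar type that sits inside type I fibrils and helps to set their diameter. Col5a1 was at 5.15, 2.42 and 3.16 TPM in Tet2 KO against 41.4, 22.7 and 38.4 TPM in Tet2 WT, and it had the largest fall of its class (log2 fold change -3.34 ± 0.23). Col5a2 was at 2.16, 1.05 and 2.25 TPM in Tet2 KO against 20.2, 11.8 and 15.7 TPM in Tet2 WT (-2.997 ± 0.278). Col5a3 was at 3.47, 4.21 and 5.32 TPM in Tet2 KO against 53.6, 23.5 and 39.8 TPM in Tet2 WT (-3.003 ± 0.298). No Tet2 KO library reached a wild-type one for any type V chain, and edgeR's adjusted p was at most 0.000296.

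The other fibrillar chains are known mainly from cartilage and other tissues, and they were low or absent here. Col27a1 was at 0.888, 2.38 and 1.196 TPM in Tet2 KO against 2.79, 2.36 and 3.05 TPM in Tet2 WT, so that the groups overlapped through Tet2 KO replicate 2. Its log2 fold change of -0.76 ± 0.35 was not called (edgeR's adjusted p = 0.187; 95% interval -1.54 to 0.02). Without Tet2 KO replicate 2 it was -1.26 and called (edgeR's adjusted p = 0.0176), and counted on protein-coding transcripts alone it was -2.17 and called (edgeR's adjusted p = 0.0193). Col11a2 was not called either, with the highest fold change of the class at 0.32 ± 0.81 and values of 0.0863, 0.869 and 0.554 TPM in Tet2 KO against 0.130, 0.413 and 0.780 TPM in Tet2 WT. Col2a1, the main cartilage collagen, and Col11a1 and Col24a1 were too low to test. In all, 6 of the 8 tested fibrillar chains were lower, with a class median of -3.002.

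All 6 type IV chains of the basement membrane were called lower, and their median was -2.92 on the log2 scale. Col4a1 (ENSMUSG00000031502.11; chr8:11198423-11312826, minus strand) and Col4a2 (ENSMUSG00000031503.13; chr8:11312805-11449287, plus strand) make the network found in nearly every basement membrane. Col4a1 was at 13.2, 13.9 and 12.3 TPM in Tet2 KO against 92.1, 46.9 and 91.3 TPM in Tet2 WT (log2 fold change -2.41 ± 0.23, edgeR's adjusted p = 0.000217). Col4a2 was at 6.33, 8.08 and 8.59 TPM in Tet2 KO against 38.5, 22.5 and 38.6 TPM in Tet2 WT, and its fall of 1.93 on the log2 scale (SE 0.21) was the smallest among the called collagens.

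The remaining type IV chains form more specialised networks, known best from the kidney and the eye. Col4a4 (ENSMUSG00000067158.9; chr1:82448423-82586849) was at 0.716, 0.271 and 1.94 TPM in Tet2 KO against 15.7, 9.27 and 11.6 TPM in Tet2 WT, with a log2 fold change of -3.44 ± 0.33. Col4a6 had the largest fall of the class at -3.96 ± 0.50, from a very low level, 0.558, 0.383 and 0.444 TPM in Tet2 WT and 0.0457, 0.0423 and 0.0250 TPM in Tet2 KO. Log2 fold changes were -2.42 ± 0.30 for Col4a3 and -3.42 ± 0.51 for Col4a5. The Tet2 KO libraries were below the wild-type libraries for all 6 chains.

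Type IV genes lie in the genome as pairs that point away from each other, a known arrangement in which a short stretch serves 2 chains. By the GENCODE annotation, Col4a1 and Col4a2 overlap by 22 bases at their starts, Col4a4 and Col4a3 are 71 bases apart on chromosome 1, and Col4a6 and Col4a5 are 1308 bases apart on the X chromosome. Stretches that lie between the genes of the latter pairs are shown because both genes of each pair were lower, together with the upstream stretches of Col3a1, the most abundant collagen here, and Col8a1, which held 4 GC boxes. They come from the RefSeq promoter table for GRCm38.p6, without annotated exons, 5′ to 3′ on the strand of the gene that heads the line. Capitals mark matches on either strand to the letters GGGCGG, which Sp factors bind and which are called the GC box here, to CCAAT, which is bound by the nuclear factor Y complex, or to TATAAA, a common core promoter element.
Col4a4 (chr1:82586850-82586920, minus strand, the whole gap to Col4a3): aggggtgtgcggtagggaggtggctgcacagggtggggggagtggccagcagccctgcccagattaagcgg
Col4a6 (chrX:141474077-141474326, minus strand): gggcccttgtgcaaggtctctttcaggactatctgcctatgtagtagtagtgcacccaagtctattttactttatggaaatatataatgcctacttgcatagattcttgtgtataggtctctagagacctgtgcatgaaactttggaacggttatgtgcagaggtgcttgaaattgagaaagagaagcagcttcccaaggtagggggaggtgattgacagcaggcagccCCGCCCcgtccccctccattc
Col4a5 (chrX:141475169-141475384, plus strand): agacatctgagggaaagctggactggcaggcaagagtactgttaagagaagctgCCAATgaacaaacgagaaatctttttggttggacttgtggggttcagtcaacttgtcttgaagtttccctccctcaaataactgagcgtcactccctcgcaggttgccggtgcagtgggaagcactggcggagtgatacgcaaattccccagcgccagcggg
Col3a1 (chr1:45311288-45311537, plus strand): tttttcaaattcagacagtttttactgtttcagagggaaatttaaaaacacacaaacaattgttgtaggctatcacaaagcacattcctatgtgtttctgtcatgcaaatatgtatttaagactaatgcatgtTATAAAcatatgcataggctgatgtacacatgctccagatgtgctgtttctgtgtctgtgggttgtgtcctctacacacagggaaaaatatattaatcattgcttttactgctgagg
Col8a1 (chr16:57754738-57754987, minus strand): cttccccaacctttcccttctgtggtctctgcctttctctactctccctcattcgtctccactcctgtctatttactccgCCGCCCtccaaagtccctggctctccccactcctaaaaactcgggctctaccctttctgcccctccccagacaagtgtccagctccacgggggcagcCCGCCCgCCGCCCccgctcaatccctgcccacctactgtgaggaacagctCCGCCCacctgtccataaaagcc

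The gap between Col4a4 and Col4a3 held none of these motifs, Col4a6 had 1 GC box, Col4a5 had 1 match to CCAAT and Col3a1 had 1 match to TATAAA. Promoters of 300 bases around the start were found in the table for 35 of the 44 collagens. A collagen counted as holding a motif if any of its promoters did, while the share of all promoters counts each promoter singly. Collagens with several promoters thus had more chances to hold a motif, and the shares are not like measures. The GC box was in 22 of the 35 (62.9%), where 35.7% of all 32851 promoters held it, and in 13 of the 18 matched collagens that were called lower (72.2%). CCAAT was found in 13 of the 35 (37.1%), in 7 of the 18 called (38.9%) and in 37.4% of all promoters. TATAAA was found in 5 of the 35 (14.3%), in 1 of the 18 called (5.56%) and in 13.6% of all promoters. These matches describe the letters only.

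FACIT chains gave the most uneven picture: 2 of 6 tested members were lower, with a class median of -0.20. Col14a1 (ENSMUSG00000022371.16; chr15:55307750-55520803), whose product binds the surface of type I fibrils, was at 11.2, 19.9 and 17.3 TPM in Tet2 KO against 20.3, 19.9 and 22.5 TPM in Tet2 WT. By TPM the groups only just failed to overlap, since Tet2 KO replicate 2 came close to Tet2 WT replicate 2, and on the scale of normalised counts the groups overlapped, at 47.8, 80.5 and 71.7 CPM in Tet2 KO and 70.9, 70.8 and 73.6 CPM in Tet2 WT. Its log2 fold change was -0.11 ± 0.18 (edgeR's adjusted p = 0.764), with a 95% interval of -0.51 to 0.30. That interval does not reach the fall of any called collagen, and without Tet2 KO replicate 1 the value was 0.087.

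All of the Col14a1 counts fell on protein-coding transcripts, 74.0% of them on the 6457-base transcript Col14a1-201. These transcripts include Col14a1-204, which is only 2085 bases long. It supplied 1.77, 5.54 and 3.55 TPM of the gene's sums in Tet2 KO against 6.31, 6.21 and 7.19 TPM in Tet2 WT. A protein-coding label therefore does not mean that all of the gene's level came from full-length message.

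Col16a1, a chain found in the matrix near several cell types, was at 2.38, 1.78 and 1.13 TPM in Tet2 KO against 11.98, 5.87 and 8.33 TPM in Tet2 WT (log2 fold change -2.04 ± 0.31, edgeR's adjusted p = 0.00209). Col12a1, the closest relative of Col14a1 in structure and likewise a fibril-surface chain, had 2, 0 and 4 counts in Tet2 KO and 216, 134 and 212 counts in Tet2 WT. The groups were far apart, but the fitted log2 fold change of -6.23 ± 0.73 rests on 6 counts in all 3 Tet2 KO libraries together. Col9a3, Col20a1 and Col22a1 were not called (log2 fold changes -0.29 ± 0.50, 0.23 ± 0.56 and -0.10 ± 0.45), each at a mean of at most 1.15 TPM in either genotype. Col9a1, Col9a2 and Col19a1 were too low to test.

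**Figure D2:**
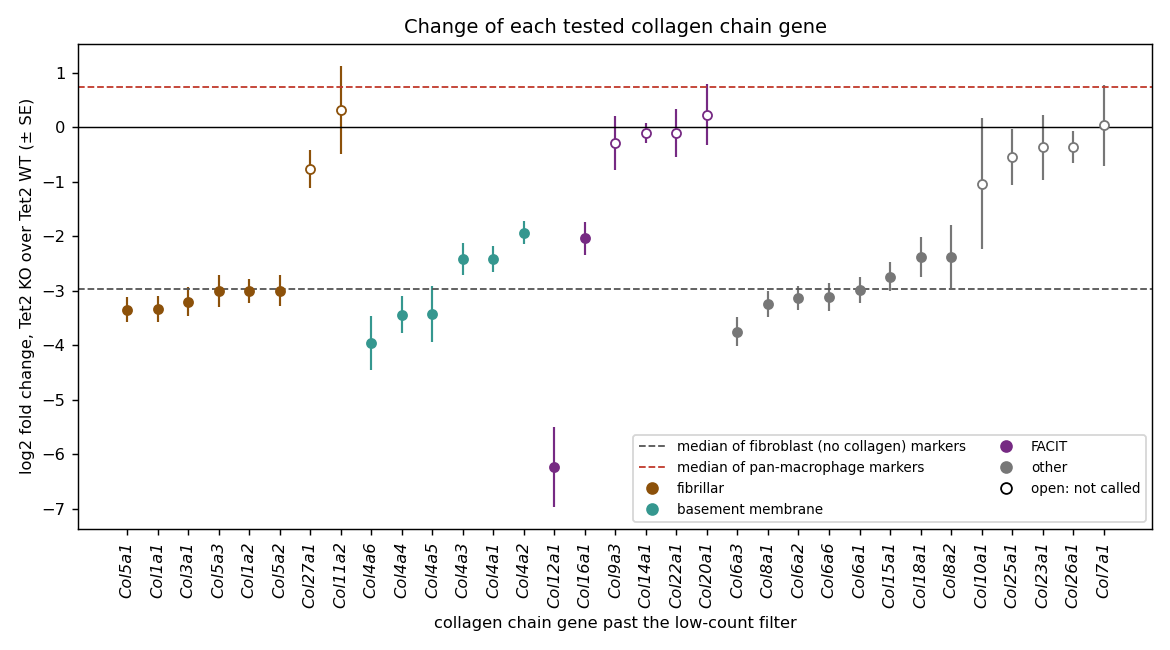
Log2 fold change of Tet2 KO over Tet2 WT with its SE for each of the 33 tested collagens, coloured by class, filled where called at an adjusted p from edgeR under 0.05 and open where not. The dashed lines are the medians of the fibroblast (-2.97) and macrophage (0.74) markers, and the called collagens lie around the former while the open points lie nearer to 0.

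Type VI collagen, a beaded filament that links cells to the surrounding fibres, was the most abundant of the other types. Col6a1 (ENSMUSG00000001119.7; chr10:76708792-76726168) was at 17.7, 15.1 and 21.03 TPM in Tet2 KO against 206.1, 105.0 and 166.6 TPM in Tet2 WT (log2 fold change -2.99 ± 0.24). Col6a2 was at 13.1, 11.6 and 13.2 TPM in Tet2 KO against 157.4, 82.8 and 132.3 TPM in Tet2 WT (-3.13 ± 0.22). Col6a3, the largest chain of the classical type VI trimer, was at 2.64, 1.70 and 3.42 TPM in Tet2 KO against 48.3, 20.96 and 31.3 TPM in Tet2 WT, and its log2 fold change of -3.75 ± 0.27 was the largest fall among the other types. Col6a6 changed by -3.11 ± 0.25. All 4 tested type VI chains were called (edgeR's adjusted p at most 0.000105), and Col6a4 and Col6a5 were too low to test.

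Among the network-forming chains, Col8a1, known from vessel walls and remodelling tissue, was at 4.19, 2.84 and 5.50 TPM in Tet2 KO against 55.0, 33.9 and 48.3 TPM in Tet2 WT (log2 fold change -3.23 ± 0.24, edgeR's adjusted p = 8.68e-05). Its partner chain Col8a2 had 10, 9 and 19 counts in Tet2 KO and 119, 47 and 65 counts in Tet2 WT. Its log2 fold change of -2.37 ± 0.57 was called (edgeR's adjusted p = 0.0198), but not without Tet2 KO replicate 1 (edgeR's adjusted p = 0.0507) or without Tet2 WT replicate 1 (edgeR's adjusted p = 0.134). Col10a1, the collagen of hypertrophic cartilage, was not called at -1.03 ± 1.199.

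The multiplexins Col15a1 and Col18a1 sit in basement membrane zones, and the latter yields the fragment endostatin. Col15a1 was at 3.46, 4.82 and 4.34 TPM in Tet2 KO against 32.7, 15.7 and 21.6 TPM in Tet2 WT (log2 fold change -2.74 ± 0.27, edgeR's adjusted p = 0.000249). Col18a1 changed by -2.38 ± 0.36 (edgeR's adjusted p = 0.00202), and neither gene's groups overlapped.

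None of the tested transmembrane, anchoring fibril or remaining chains was called, and Col13a1, Col17a1 and Col28a1 were too low to test. The transmembrane chains Col23a1 and Col25a1 had log2 fold changes of -0.37 ± 0.60 and -0.54 ± 0.51. Col7a1, which anchors epidermis to dermis, stood at 0.04 ± 0.75. Col26a1 (ENSMUSG00000004415.15; chr5:136741759-136883209) was at 9.17, 13.2 and 14.0 TPM in Tet2 KO against 16.1, 14.5 and 17.8 TPM in Tet2 WT, with a log2 fold change of -0.36 ± 0.29 (edgeR's adjusted p = 0.479; 95% interval -1.02 to 0.30). On the CPM scale its groups only just failed to overlap, at 2.996, 5.330 and 4.903 CPM in Tet2 KO and 6.220, 5.356 and 5.490 CPM in Tet2 WT. The 11 untested collagens had at most 31 counts in any library, and 4 of them, Col2a1, Col9a1, Col9a2 and Col24a1, were at 0 in all Tet2 KO libraries.

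Not every collagen gene was counted on transcripts that encode a chain. Among the 22 called collagens, the share of counts on protein-coding transcripts ran from 54.7% to 100% with a median of 98.7%, and it was at least 90% in 18. Among the 11 that were tested and not called it ran from 5.36% to 100%, and 4 genes were under 50%, namely Col26a1 (5.36%), Col25a1 (7.15%), Col27a1 (19.2%) and Col9a3 (42.6%). For Col26a1, 77.5% of the counts lay on Col26a1-207 (ENSMUST00000147083.1), a 578-base retained-intron transcript, so most of what was counted for this gene was not full-length message. For Col25a1, 84.5% of the counts were on a retained-intron transcript as well. Of the called genes Col16a1 had the lowest coding share, with 41.3% of counts on a transcript annotated for nonsense-mediated decay.

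The make-up of the collagen transcripts by class was compared next, as a description without a test. Fibrillar chains summed to 60.01 ± 14.01 TPM in Tet2 KO against 555.9 ± 121.8 TPM in Tet2 WT (mean ± SD, n = 3 each), or 37.6% ± 5.96 and 49.4% ± 1.98 of the total. Basement membrane chains summed to 23.0 ± 1.77 and 130.2 ± 39.6 TPM, or 14.6% ± 1.63 and 11.4% ± 1.04. The fibrillar share was lower and the basement membrane share higher in every Tet2 KO library than in any wild-type library.

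FACIT chains summed to 19.6 ± 4.39 TPM in Tet2 KO against 32.7 ± 3.47 TPM in Tet2 WT, a ratio of 1.67 that compares with 9.26 for the fibrillar chains. Their share was 12.5% ± 3.56 in Tet2 KO and 2.97% ± 0.50 in Tet2 WT. Col14a1 alone supplied 7.35%, 13.8% and 9.66% of all collagen TPM in Tet2 KO against 1.47%, 2.45% and 1.87% in Tet2 WT, which moved it from rank 13 among collagens in the wild type to rank 3 in Tet2 KO. These ranks are by gene TPM. The other types had a share of 35.4% ± 0.96 in Tet2 KO and 36.2% ± 2.04 in Tet2 WT by gene TPM, with overlapping groups. On CPM their share was 27.5% ± 0.34 and 33.1% ± 1.55, and on protein-coding transcripts 29.5% ± 0.54 and 34.8% ± 2.09, with every Tet2 KO library below every wild-type library on both of these scales.

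**Figure D3:**
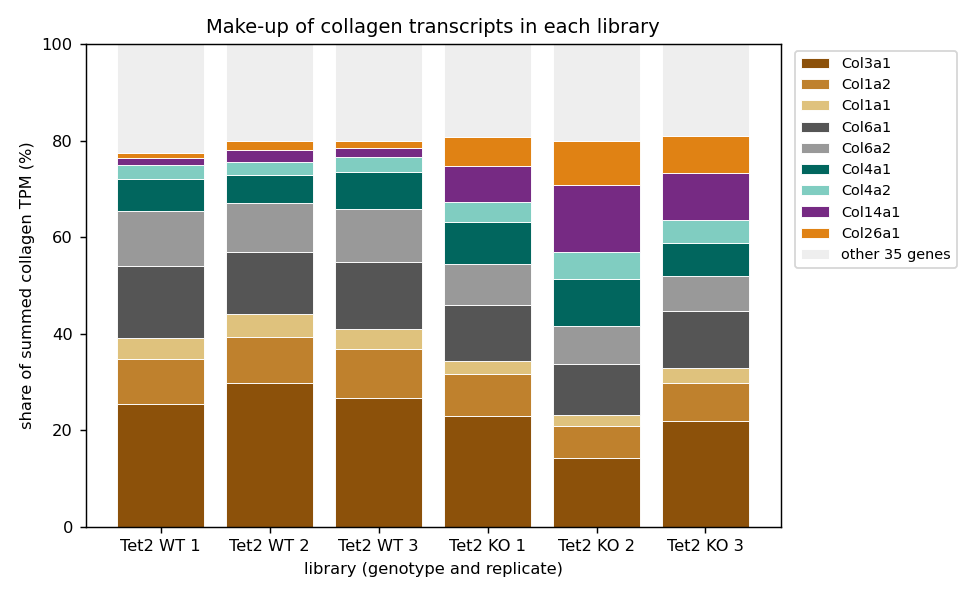
Make-up of the summed collagen TPM in each library, in percent, for 9 collagen genes and the other 35 together. The purple band of Col14a1 and the orange band of Col26a1 are wider in all 3 Tet2 KO libraries, and the brown bands of Col3a1, Col1a2 and Col1a1 are narrower.

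Whether chains fell by the same factor was asked by the log2 ratio of 2 chains within a library, which does not depend on how libraries are scaled to each other. An exact two-sided permutation test over the 20 assignments of genotype labels was used for 14 pairs, of which 4 were added after the values had been seen, and its smallest possible p is 0.1 (0.14 after Benjamini-Hochberg adjustment over the pairs). No pair could therefore pass a threshold of 0.05. The groups did not overlap in 10 of the 14 pairs, but 7 of the 14 have Col1a1 as the reference and are not independent. The 10 include pairs added after the values had been seen, and the share among other pairs of genes was not computed.

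Some of these pairs hold chains that can join in a trimer. For Col5a2 over Col5a1 the ratio differed by 0.11 ± 0.27 (SE) on the log2 scale between Tet2 KO and Tet2 WT (exact p = 0.8), and for Col6a2 over Col6a1 by -0.14 ± 0.09 (exact p = 0.2). Col1a2 over Col1a1 was 0.41 ± 0.15 higher and Col4a2 over Col4a1 0.40 ± 0.17 higher in Tet2 KO (exact p = 0.1 each), with groups that only just failed to overlap. Col6a3 over Col6a1 was 0.56 ± 0.19 lower in Tet2 KO on the same scale (difference -0.56, exact p = 0.1).

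Between types the ratios moved further. Col14a1 over Col1a1 had log2 ratios of 1.47, 2.64 and 1.64 in Tet2 KO and -1.57, -0.95 and -1.13 in Tet2 WT. In other words Col14a1 was at 3.77 times the level of Col1a1 in Tet2 KO and at 0.429 times in Tet2 WT, a log2 difference of 3.13 ± 0.41 (exact p = 0.1). Leaving aside the added pairs, this was the widest difference, ahead of Col18a1 (1.77 ± 0.50), Col15a1 (1.13 ± 0.32) and Col4a1 (1.06 ± 0.33), each over Col1a1. On CPM the difference for Col18a1 was 0.92 (exact p = 0.4) and that for Col15a1 0.66. Of the pairs added, Col26a1 over Col1a1 differed by 3.11 ± 0.31 and Col14a1 over Col3a1 by 2.89 ± 0.50 (exact p = 0.1 each). The Col26a1 level rests mainly on a 578-base retained-intron transcript, with 5.36% of its counts on protein-coding transcripts.

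Of the head-to-head type IV pairs, Col4a4 and Col4a3 had the least even ratio. Col4a4 over Col4a3, also added, had log2 ratios of 1.96, 1.99 and 1.85 in the wild type and 0.82, -2.17 and 1.47 in Tet2 KO (difference -1.90 ± 1.12, exact p = 0.1). That difference was -0.79 without Tet2 KO replicate 2. Col4a6 over Col4a5, at levels under 1 TPM in Tet2 KO, differed by 0.05 ± 0.84 (exact p = 1).

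**Figure D4:**
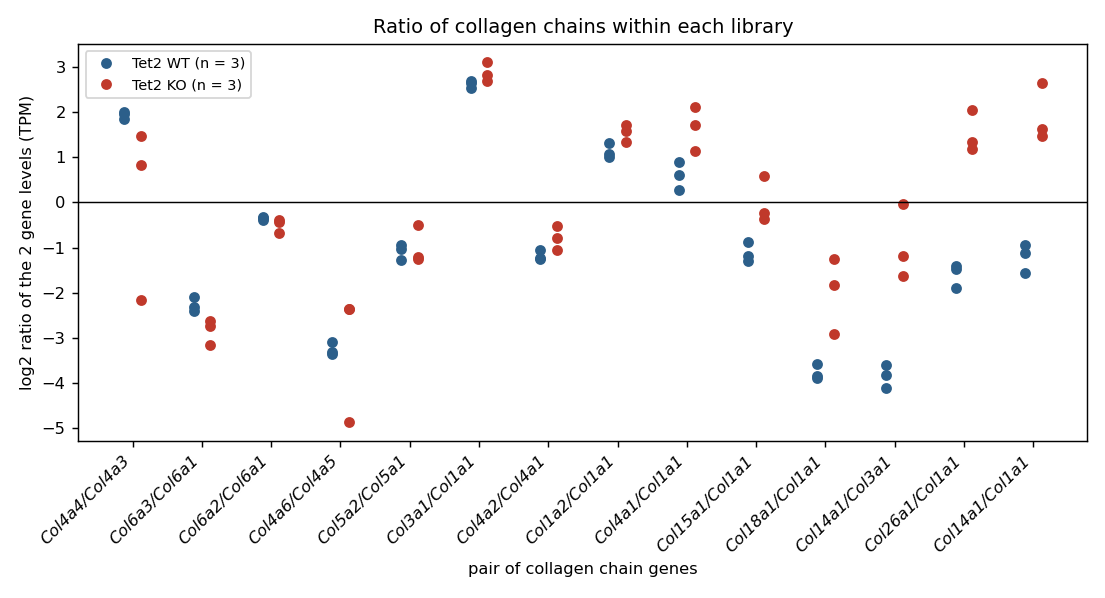
Log2 ratio of the TPM of 2 collagen chains in each library, with 1 point for each of the 3 libraries of a genotype. Pairs with Col14a1 or Col26a1 over a fibrillar chain show the widest gaps between red Tet2 KO and blue Tet2 WT points, and pairs such as Col6a2 over Col6a1 show almost none.

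Genes that modify, carry and crosslink collagen were in part lower as well. Of 31 genes for collagen synthesis and processing, all of which were tested, 17 were lower, 0 were higher and 14 were not called. Of all tested genes, 10.1% were lower and 6.11% higher. The median log2 fold change of the 31 genes was -1.88. Loxl2, a lysyl oxidase relative that crosslinks collagen, was at 2.09, 1.22 and 1.17 TPM in Tet2 KO against 26.96, 15.04 and 24.15 TPM in Tet2 WT (-3.60 ± 0.24). Sparc, a matricellular collagen-binding protein, was at 88.6, 64.1 and 84.9 TPM in Tet2 KO against 635.3, 395.5 and 591.9 TPM in Tet2 WT (-2.65 ± 0.19). Serpinh1, the collagen-specific chaperone of the endoplasmic reticulum, was at 30.6, 27.7 and 36.9 TPM in Tet2 KO against 298.1, 143.3 and 332.7 TPM in Tet2 WT (-2.85 ± 0.28).

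No library of one genotype reached the other for these 3 genes. Lower as well were Adamts2 (-3.09 ± 0.23), which removes the amino-terminal propeptide, and Bmp1 (-2.53 ± 0.21), which removes the carboxy-terminal one. Pcolce2, an enhancer of that cleavage, changed by -3.29 ± 0.26, the lysyl hydroxylase Plod2 by -3.29 ± 0.27 and the prolyl 3-hydroxylase family member P3h3 by -1.88 ± 0.21. With edgeR the adjusted p was at most 0.000345 for these 8 genes.

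Several enzymes of the list were not called, and those given here were chosen after their values were seen. Some of them had large falls, namely Adamts3 (log2 fold change -3.74 ± 1.22), Adamts14 (-1.98 ± 0.67), Loxl4 (-1.31 ± 0.44) and P3h1 (-0.95 ± 0.31). Others changed little. P4hb, a disulfide isomerase and subunit of prolyl 4-hydroxylase, was at 209.8 ± 28.1 TPM in Tet2 KO against 262.0 ± 38.5 TPM in Tet2 WT (log2 fold change -0.16 ± 0.15). The cyclophilin Ppib (-0.05 ± 0.11), P4ha1 (-0.22 ± 0.16), Plod1 (-0.04 ± 0.13), Plod3 (0.29 ± 0.12) and Colgalt1 (0.33 ± 0.12) were not called. Without Tet2 KO replicate 2, Colgalt1 was at 0.39 and called higher (edgeR's adjusted p = 0.0435). P3h2 had the highest value of the list, 0.64 ± 0.21, and was not called (edgeR's adjusted p = 0.0654), but it was called higher with no low-count filter (edgeR's adjusted p = 0.0403), with the replicate number as a block (edgeR's adjusted p = 0.0344) and with DESeq2 (adjusted p = 0.0241).

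Receptors for collagen came next. Of 11 genes, 4 were lower, 1 was higher and 6 were not called, where 10.1% of all tested genes were lower and 6.11% higher, and their median log2 fold change was -0.37. The discoidin-domain receptor tyrosine kinase Ddr2 was at 9.73, 5.96 and 7.95 TPM in Tet2 KO against 73.1, 52.9 and 61.1 TPM in Tet2 WT (log2 fold change -2.79 ± 0.19, edgeR's adjusted p = 8.66e-05). Mrc2, an endocytic receptor for collagen fragments, changed by -3.36 ± 0.37, the integrin subunit Itga11 by -2.83 ± 0.55 and Ddr1 by -2.34 ± 0.52. Ddr1 was not called without Tet2 KO replicate 1 (edgeR's adjusted p = 0.0538) or without Tet2 WT replicate 1 (0.0755), nor was Itga11 with no low-count filter (edgeR's adjusted p = 0.102). Lair1, an inhibitory collagen receptor of leukocytes, was higher in Tet2 KO.

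Lair1 stood at 268.2, 185.7 and 288.1 TPM in Tet2 KO against 162.4, 166.5 and 134.9 TPM in Tet2 WT, without overlap (log2 fold change 0.74 ± 0.16, edgeR's adjusted p = 0.0124). It was not called without Tet2 KO replicate 3 (edgeR's adjusted p = 0.0626). The median of the 16 macrophage markers was also 0.74. Itgb1, the beta subunit shared by the collagen-binding integrins and many others, was not called (0.07 ± 0.13).

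**Figure D5:**
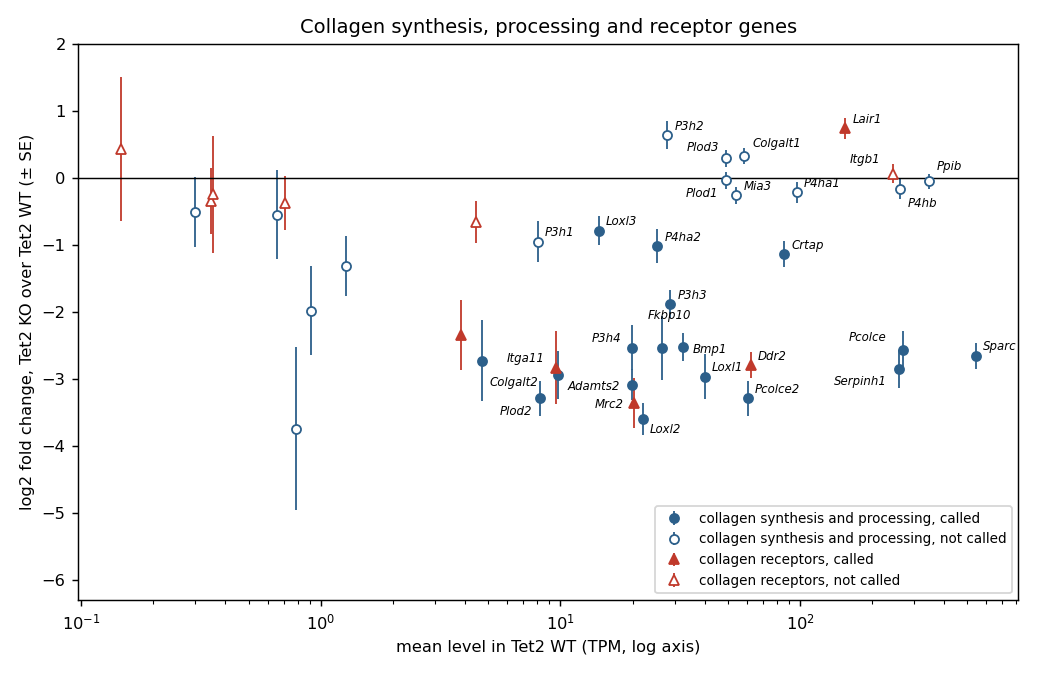
Log2 fold change of Tet2 KO over Tet2 WT with its SE against the mean wild-type level in TPM (log axis) for the 31 synthesis and processing genes (circles) and the 11 receptors (triangles), filled where called. Among the abundant genes, Sparc, Serpinh1 and Pcolce lie far below 0, while P4hb, Ppib and Itgb1 lie close to it and Lair1 above it.

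The markers of cell types that might carry collagen RNA moved by different amounts. Of all tested genes, 10.1% were lower and 6.11% higher. Of the 18 fibroblast markers 17 were lower, with a median of -2.97 and a range of -3.69 to -1.84, and 19 of the 22 called collagens had a log2 fold change inside that range. The other 3 called collagens, Col4a6, Col6a3 and Col12a1, lay below it. The upper end of the range was set by Cdh11 alone, the marker that was not called, at a mean of 0.69 TPM. Among the 17 called markers the smallest fall was that of Gsn, at -2.56. Col4a1 (-2.41), Col4a2 (-1.93), Col4a3 (-2.42), Col8a2 (-2.37), Col16a1 (-2.04) and Col18a1 (-2.38) fell less than that. The median of all genes called lower was -2.27. The abundant fibroblast markers Gsn, Dcn and Htra3 were all lower. Per unit of summed fibroblast marker TPM, collagen stood at 0.057, 0.113 and 0.072 in Tet2 KO and at 0.070, 0.079 and 0.069 in Tet2 WT, so the groups overlapped, with Tet2 KO replicate 2 the highest.

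Per unit of endothelial marker TPM, by contrast, collagen stood at 2.72, 1.91 and 2.84 in Tet2 KO and at 19.0, 12.7 and 8.60 in Tet2 WT. Of 11 endothelial markers 1 was lower, Tek, with summed levels of 94.4 to 142 CPM in Tet2 KO and 135 to 281 CPM in Tet2 WT. Tek, a receptor for angiopoietins, was thus the only called marker of its list, where 10.1% of all tested genes were lower. Of 9 pericyte and smooth muscle markers 2 were lower, with sums of 35.1 to 65.6 CPM in Tet2 KO and 130 to 210 CPM in Tet2 WT. Both lists describe cells of the vessel wall. Of 6 Schwann cell markers, 3 were tested and 1 was lower, with sums of 2.57 to 5.99 CPM in Tet2 KO and 20.3 to 36.7 CPM in Tet2 WT. None of the 10 cardiomyocyte markers and none of the 2 tested mesothelial markers of 5 was called, with sums of 92.1 to 154 and 0.916 to 2.08 CPM in Tet2 KO and of 120 to 142 and 0.847 to 1.67 CPM in Tet2 WT. No marker of these lists was at 0 in all 6 libraries. The part of any of these cell types in the collagen values was not tested.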

How the data were processed

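The submitters' processing notes name Trim Galore 0.6.4 for trimming, kallisto 0.44.0 for assigning reads to transcripts, and the build GRCm38. Per the file headers, the authors deposited an estimated count and a TPM value for each transcript, with length and effective length. kallisto splits reads shared by several transcripts, so gene sums are steadier than single transcripts, and short transcripts weigh more in TPM. Identifiers without version matched GENCODE M21 for 116622 of 118783 transcripts (98.2%), and the others held at most 0.671% of a library's counts.

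Estimated counts were summed per gene and rounded, and TPM summed, for all 35865 genes. The whole table was filtered with filterByExpr and normalised by TMM, and edgeR 4.0.16 (R 4.3.3) ran its robust quasi-likelihood test, genotype alone in the model, with Benjamini-Hochberg adjustment over 16386 genes and a threshold of 0.05. A standard error is the log2 fold change divided by the root of its F statistic, and 95% intervals use the fit's degrees of freedom. Marker sums in CPM are counts over the plain total of each library, while CPM values of collagens use totals scaled by TMM. Ratios of chains used gene TPM in genes with at least 3 counts in each library. Libraries of a genotype differed beyond sampling noise, with a chi-square per gene of 68.7 to 187.

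The collagens, their classes and the gene and marker lists were chosen with earlier results of these data known. Collagens with a mean of at least 5 TPM, and those with the largest change up or down in their class, are given by library; from the synthesis and receptor lists up to 8 genes were named by smallest p, plus any that was higher, and at most 3 from each marker list. Other genes named, the 4 added chain pairs and the Col3a1 and Col8a1 stretches were chosen after values were seen. Alternatives were other scalings (RLE, upper quartile), filters, a threshold of 0.01, length-scaled counts, protein-coding transcripts alone, the replicate number as a block, DESeq2 1.42.0, limma 3.58.1 (voom, and log2 of TPM plus 1 or 0.1) and leaving out each library. Promoter sequences are RefSeq's for GRCm38.p6.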

Additional observations from a re-analysis of the deposited data

How the results depend on the processing

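The counts and log2 fold changes of the collagens, the synthesis list and the receptors were recomputed under 18 alternatives (those of Tet2 and the markers were not), and 21 of the 22 called collagens kept their call in each alternative that tested them, Col8a2 being the exception. Leaving out 1 library at a time gave 21 to 24 collagens lower and 0 to 0 higher, a log2 ratio of summed collagen level (wild type over knockout) of 2.67 to 3.02, 14 to 18 synthesis genes lower and 0 to 1 higher, and 3 to 4 receptors lower and 0 to 1 higher. The receptors that lost their call this way were Lair1 without Tet2 KO replicate 3 and Ddr1 without replicate 1 of either genotype; with no low-count filter Itga11 lost its call. Synthesis genes higher numbered 1 with no low-count filter, 1 with the replicate block and 1 with DESeq2, P3h2 in each. Without Tet2 KO replicate 2 Colgalt1 was called higher. Of the 17 called synthesis genes, 13 kept their call in each alternative that tested them, while Fkbp10, Lox, Loxl3 and P4ha2 did not. Adamts3, Adamts14, Loxl4 and P3h1 were called lower in some alternatives. Same-numbered libraries of the 2 genotypes had correlated deviations of 0.0607, 0.130 and 0.0423, each the highest for its library, which is too little to pair them. With the replicate block 22 collagens were lower, as without it, and over all genes 1558 were lower and 789 higher. limma on TPM moved the lower share of all called genes from 62.3% to 83.4% (TPM plus 1) and 82.8% (TPM plus 0.1), and the median of all genes to -0.09 and -0.15. DESeq2 called 2007 genes lower and 1448 higher.

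Of the chain ratios, Col6a3 over Col6a1 was -0.79, Col15a1 over Col1a1 0.66 and Col18a1 over Col1a1 0.92 (exact p = 0.4) on CPM; on protein-coding transcripts Col15a1 over Col1a1 was 0.63 and Col4a6 over Col4a5 -1.31, and with a pseudocount of 0.1 TPM the latter was 1.30. Leaving out 1 library gave 2.77 to 3.36 for Col14a1 over Col1a1, -2.61 to -0.79 for Col4a4 over Col4a3, -0.37 to 0.89 for Col4a6 over Col4a5 and -0.14 to 0.24 for Col5a2 over Col5a1. Col26a1 over Col1a1 could not be computed on protein-coding transcripts, because those of Col26a1 were at 0 in a library.

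Changes of sign were found only in genes that were not called. Col20a1 was at -0.020 with the block, -0.35 with length-scaled counts, -0.12 with voom, and -0.20 and -0.55 with limma on TPM plus 1 and plus 0.1. Col7a1 was at -0.23 with the block, -0.40 with length-scaled counts, -0.31 on protein-coding transcripts, -0.26 with voom, and -0.12 and -0.46 with limma on TPM. Col11a2 was at -0.16 with the block and -0.094 with voom, Itga10 at 0.23 and 0.070 likewise, Col22a1 at 0.10 with length-scaled counts, and Itgb1 at -0.087 and -0.087 with limma on TPM. Leaving out 1 library gave -0.26 to 0.087 for Col14a1, -0.11 to 0.68 for Col20a1, -0.23 to 0.17 for Col22a1, -0.49 to 0.84 for Col11a2, -0.84 to 0.50 for Col7a1, -0.89 to 0.11 for Col23a1, -3.39 to 0.092 for Col10a1, -1.22 to 0.0073 for P4ha3, -0.10 to 0.054 for Plod1, -1.09 to 0.90 for Itga10, -0.016 to 0.15 for Itgb1 and -1.44 to 0.91 for Oscar. The cause of these shifts was not tested. Depth limits the 11 untested collagens and the low chains, and 3 libraries per genotype limit every ratio test.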
